A study of Homo sapiens with 8 samples.

Results

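The transcripts of the mitochondrial genome were examined in A549 cells, a line from a human lung adenocarcinoma, after transfection with an siRNA against APEX1 or with a control siRNA. APEX1 encodes APE1, a base excision repair endonuclease that acts in the nucleus and in mitochondria. The members are the genes of the deposited count table whose identifier carries a GENCODE 44 symbol starting with MT- on the mitochondrial chromosome, 37 of 58302 genes. They comprise 13 mRNA genes, 2 rRNA genes and 22 tRNA genes. The libraries compared were 4 labelled siCTRL and 4 labelled siAPEX1, all from this 1 cell line. They were prepared from total RNA with a small-RNA kit, which adds a tail to 3ʹ ends and which the authors adapted to capture unprocessed miRNA precursors as well. The labels do not say whether the 4 libraries of a group came from separate cultures, so p-values measure the spread between these libraries only.

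The mitochondrial genome is a small circle whose strands are named heavy and light, and each is transcribed as a long polycistronic RNA. In most places the mRNAs and rRNAs are separated by tRNAs, which fold within the precursor and are cut out at their 5ʹ end by mitochondrial RNase P and at their 3ʹ end by ELAC2, so that the tRNAs punctuate the transcript. All 13 mRNA genes encode subunits of the respiratory chain or of ATP synthase, and the rRNAs and tRNAs serve the mitochondrial ribosome. MT-ATP8 shares an mRNA with MT-ATP6, and MT-ND4L with MT-ND4. Here genes on the plus strand of the annotation are called heavy-strand genes (12 mRNA, 2 rRNA and 14 tRNA genes), and those on the minus strand light-strand genes (MT-ND6 and 8 tRNA genes).

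The results below turn on a few tRNAs, whose genes are shown as they read in the human reference (GRCh38, chrM, 5ʹ to 3ʹ on the strand of the gene, with the anticodon in capitals). MT-TV, MT-TI and MT-TL1, the tRNAs for valine, isoleucine and leucine, differed between the labels by more than 2-fold. MT-TF and MT-TM, for phenylalanine and methionine, lie near them and did not. MT-TP, for proline, held the most counts of the tRNA genes, and MT-TK, for lysine, had none.
MT-TV (chrM:1602-1670, plus strand): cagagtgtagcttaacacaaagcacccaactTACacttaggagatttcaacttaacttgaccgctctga
MT-TL1 (chrM:3230-3304, plus strand): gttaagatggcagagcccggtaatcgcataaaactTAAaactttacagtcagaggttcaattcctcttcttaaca
MT-TI (chrM:4263-4331, plus strand): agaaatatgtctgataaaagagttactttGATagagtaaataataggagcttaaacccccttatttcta
MT-TF (chrM:577-647, plus strand): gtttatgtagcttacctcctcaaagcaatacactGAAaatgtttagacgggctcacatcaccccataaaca
MT-TM (chrM:4402-4469, plus strand): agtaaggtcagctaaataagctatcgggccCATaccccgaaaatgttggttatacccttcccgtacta
MT-TP (chrM:15956-16023, minus strand): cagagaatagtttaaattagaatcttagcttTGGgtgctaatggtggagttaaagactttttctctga
MT-TK (chrM:8295-8364, plus strand): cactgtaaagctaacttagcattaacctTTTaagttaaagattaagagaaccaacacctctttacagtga

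Between 1639796 and 1949886 reads were counted on genes in the libraries labelled siCTRL and between 1348386 and 1619500 in those labelled siAPEX1, so depth and label run together. APEX1 itself had between 47 and 64 counts under the label siCTRL and between 19470 and 27916 under the label siAPEX1. It was thus higher, not lower, under the label of the siRNA against it. Whether these reads come from the APEX1 mRNA, and what causes the difference, was not tested. Every direction given here is that of the libraries as labelled. Of 10 markers of A549 cells, 9 had counts in every library (EPCAM, at 0 in at least 1 library, was the exception), and their sum was between 2570 and 3211 under the label siCTRL and between 1640 and 2034 under the label siAPEX1. Of 7 markers of other cell types 2 (CD3E and PECAM1) were at 0 throughout, and the sum of the 7 was at most 16 counts per library. Scaled with TMM factors, the A549 markers summed to between 1422 and 1592 CPM under the label siCTRL and between 1326 and 1466 under the label siAPEX1, which overlapped. Over the 8 libraries KRT18 ran from 102 to 621 counts, KRT19 from 18 to 169 and KRT8 from 31 to 127. AKR1C2 ran from 297 to 428 and CDH1 from 22 to 38, so the sum does not describe each marker.

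Without TMM factors, the share of all counts on mitochondrial genes did not separate the labels. The shares of the mRNA and tRNA classes did, and a few abundant members held most of the difference in share. The TMM factors were between 1.10 and 1.14 under the label siCTRL and between 0.873 and 0.919 under the label siAPEX1. Levels scaled with them, as tested below, thus lie higher under the label siAPEX1 relative to these shares. All mitochondrial genes together held between 37.7% and 39.4% of the counts in the libraries labelled siCTRL and between 37.7% and 39.1% in those labelled siAPEX1. The mRNA genes held 5.64%, 5.54%, 6.19% and 5.999% in siCTRL replicates 1 to 4 and 3.84%, 3.48%, 3.46% and 3.70% in siAPEX1 replicates 1 to 4. All libraries labelled siAPEX1 were thus below all libraries labelled siCTRL. The tRNA genes held 16.1%, 16.8%, 16.6% and 15.5% against 17.3%, 20.6%, 17.9% and 18.1%, with every library labelled siAPEX1 above the others and replicate 2 highest. MT-TV alone held 3.07% ± 0.267 and 5.17% ± 0.415 (SD, n = 4 each). Without it the other tRNA genes held unscaled shares of 13.2% ± 0.411 and 13.3% ± 1.06, with overlap. In CPM scaled with TMM factors, 12 of the 17 tRNA genes tested, MT-TV among them, had all libraries labelled siAPEX1 above the others. This held for 14.0% of all genes tested. MT-ATP8 and MT-ND2 together held 3.85% ± 0.240 and 1.94% ± 0.100, and the other mRNA genes 1.99% ± 0.0784 and 1.68% ± 0.159. These overlapped only through siAPEX1 replicate 1, at 1.923% against 1.916% in siCTRL replicate 1. Which members to leave out was decided with their values in view, so a smaller difference without them follows from the choice. The rRNA genes held 15.96%, 16.1%, 16.5% and 17.9% against 17.6%, 15.04%, 16.7% and 15.96%, and these overlapped. In CPM scaled with TMM factors, both rRNA genes had every library labelled siAPEX1 above all libraries labelled siCTRL. In such bulk samples, fewer cells of a kind and less RNA per cell cannot be told apart. Within a library, which needs no scaling between libraries, there were 2.78 ± 0.194 tRNA counts per mRNA count under the label siCTRL (SD, n = 4) and 5.12 ± 0.601 under the label siAPEX1 (SD, n = 4), and the groups did not overlap. These are sums over chosen members, so they are given without a test.

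**Figure D1:**
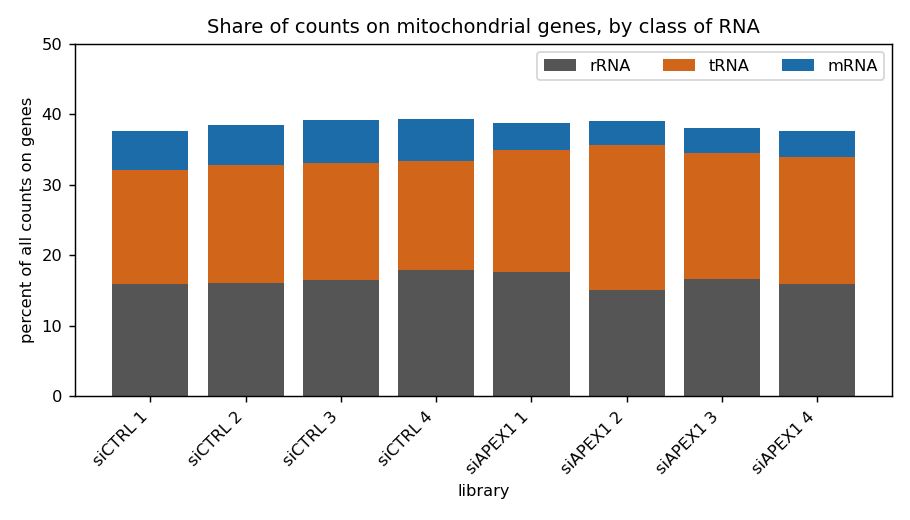
Share of all counts on mitochondrial rRNA, tRNA and mRNA genes (y axis, percent of counts on genes) in each of the 8 libraries (x axis, named by label and replicate), as stacked bars from 0. The top segment, mRNA, runs from 5.54% to 6.19% under the label siCTRL and from 3.46% to 3.84% under the label siAPEX1, while the height of the whole bar stays between 37.7% and 39.4%.

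Changes of single genes were tested with edgeR on all 5368 genes that passed the filter on low counts, with TMM factors and Benjamini-Hochberg adjustment, and a gene is called up- or down-regulated at an adjusted p of at most 0.05. Of the members, 32 passed the filter, 20 were up-regulated and 5 down-regulated under the label siAPEX1, and 7 did not pass the test. Over all genes tested, 15.9% were higher and 15.8% lower. With the added threshold of 1 on the size of the log2 fold change (log2FC), 4 members were higher (MT-CO1, MT-TV, MT-TI and MT-TL1) and 0 lower, where 3.60% of all genes were higher and 5.68% lower. At an unadjusted p under 0.05, 6 members were lower at any fold, and no share over all genes was taken at that p. DESeq2 called 19 members higher and 5 lower, of which 4 and 0 reached that fold. Of all genes tested, it called 10.8% higher and 10.1% lower at any fold. In 19 of the 32 members all libraries labelled siAPEX1 lay above all libraries labelled siCTRL in CPM (counts relative to library size, scaled with the TMM factors), and in 6 they lay below, against 14.0% and 14.9% of all genes tested. The scaling bears on each of these directions. With library size in place of TMM factors, every gene moved down so that the median over all genes was −0.34 in place of 0.00, and 12 members were higher and 10 lower, where 6.33% of all genes were higher and 36.2% lower. The values below are read relative to the median of all genes tested.

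The tRNAs were the class that moved most in one direction. Of 22 tRNA genes 17 passed the filter, 13 were up-regulated, 0 were down-regulated and 4 did not pass the test, with a median log2FC of 0.73 (0.39 with library size only). Over all genes tested, 15.9% were higher and 15.8% lower. At an unadjusted p under 0.05, and with DESeq2, 0 tRNA genes were lower. With library size only, MT-TF (−0.46), MT-TM (−0.48) and MT-TS1 (−0.47) were lower past the adjusted p, as were 36.2% of all genes. The tRNA genes of the heavy strand had a median of 0.80 over the 12 tested, and those of the light strand 0.35 over 5.

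MT-TV, the tRNA for valine, which in human mitochondria is also a structural part of the large ribosomal subunit, had 49218, 64463, 62089 and 48754 counts under the label siCTRL. It had 65142, 82290, 83369 and 71859 under the label siAPEX1, in libraries that were all smaller. In CPM this was 27930.4 ± 2742 against 59403 ± 5587 (SD, n = 4 each) without overlap, a log2FC of 1.09 (standard error, SE, 0.0844, adjusted p = 1.08e-13). MT-TI, which reads isoleucine codons, had 7453, 7218, 8023 and 5703 counts against 8004, 11712, 9374 and 8812, and a log2FC of 1.08 (SE 0.0951, adjusted p = 3.30e-12). MT-TL1, one of the pair of leucine tRNAs and the one that follows the large-subunit rRNA, had 5312, 5701, 5827 and 4406 counts against 5913, 6603, 7620 and 7098. Its log2FC was 1.01 (SE 0.0825, adjusted p = 3.75e-13), and in both genes every library labelled siAPEX1 lay above the others after scaling. These values of more than 1 depend on the scaling, since with library size only they were 0.75, 0.74 and 0.67, still past the adjusted p.

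MT-TG, the glycine tRNA, had 3877, 3911, 5038 and 3399 counts against 4345, 5902, 5029 and 3589, and a log2FC of 0.88 (SE 0.103, adjusted p = 4.80e-09). The other up-regulated tRNAs of the heavy strand were MT-TH (0.81), MT-TD (0.81), MT-TR (0.79), MT-TT (0.73), MT-TL2 (0.62) and MT-TS2 (0.51), which serve histidine, aspartate, arginine, threonine, leucine and serine. Of these, MT-TS2 did not pass the adjusted p with library size only (0.115). MT-TH was the up-regulated tRNA whose groups overlapped, with 3620 counts in siCTRL replicate 2 against at most 2323 in the others of that label, and 4471 in siAPEX1 replicate 3 against at most 2398.

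Among heavy-strand tRNAs, MT-TF and MT-TM stood at the other end. MT-TF had 46394, 40755, 49571 and 28179 counts under the label siCTRL and 18683, 29560, 24548 and 23398 under the label siAPEX1, which overlapped after scaling. Its log2FC was −0.11 (SE 0.105, adjusted p = 0.463). MT-TM, which carries the methionine used both to start and to extend mitochondrial proteins, had 16489, 17952, 18301 and 14050 counts against 7765, 10989, 10972 and 8715. Its log2FC was −0.14 (SE 0.0883, adjusted p = 0.233). With library size only both were lower past the adjusted p, at −0.46 and −0.48. Some ratios between members, which no scaling alters, separated the labels and others did not. For each count of MT-RNR1, which follows it, there were 0.486, 0.430, 0.480 and 0.324 of MT-TF under the label siCTRL and 0.292, 0.486, 0.330 and 0.380 under the label siAPEX1, and the groups overlapped. There were 1.06, 1.58, 1.25 and 1.73 counts of MT-TV for each of MT-TF in the libraries labelled siCTRL and 3.49, 2.78, 3.40 and 3.07 in those labelled siAPEX1. For each count of MT-TM there were 0.425 ± 0.0245 of MT-TI under the label siCTRL and 0.991 ± 0.0935 under the label siAPEX1 (SD, n = 4 each).

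On the light strand, MT-TY and MT-TC, for tyrosine and cysteine, were up-regulated with log2FCs of 0.86 and 0.63. MT-TP, the proline tRNA, had 130902, 146124, 141619 and 124698 counts against 98609, 114185, 114441 and 111734. In CPM it was higher without overlap, and its log2FC was 0.35 (SE 0.0766, adjusted p = 4.15e-04). With library size only the value was 0.01 (adjusted p = 0.957), and with every gene of at least 1 count the adjusted p was 0.0744. MT-TP took 45.9% ± 2.17 of all mitochondrial tRNA counts under the label siCTRL and 40.8% ± 1.88 under the label siAPEX1 (SD, n = 4 each). The share of tRNA counts on the light strand was 47.1% ± 2.16 and 42.0% ± 1.91. Without MT-TP, a setting added once the data had been seen, this share was 2.10% ± 0.0844 and 2.09% ± 0.157, and the groups overlapped. The counting column that the authors took from the aligner, with or without regard to strand, is not given in the sources used here, so reads from the opposite strand cannot be told apart from those of MT-TP.

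The tRNA genes with few counts were those with an identical copy in the nuclear genome. Compared with the nuclear chromosomes of GRCh38 by BLAST, 7 of the 22 tRNA genes (MT-TQ, MT-TW, MT-TA, MT-TN, MT-TS1, MT-TK and MT-TE) matched a nuclear place over their full length without a mismatch. They had between 0 and 134 counts per library, and the other 15 had between 308 and 146124. MT-TK, shown above, reads the same at chr1:633464-633533, and MT-TN at chr1:630827-630899. Both had 0 counts in every library, which allows up to 3 counts per library by counting error alone. MT-TQ, for glutamine, had 3, 4, 3 and 1 counts against 1, 0, 2 and 1, MT-TA, for alanine, 0, 1, 1 and 1 against 2, 1, 1 and 0, and MT-TW, for tryptophan, 7, 9, 10 and 11 against 7, 2, 6 and 4. These 5 genes were not tested. MT-TS1, for serine, had 38, 36, 49 and 34 counts against 23, 25, 22 and 21 and a log2FC of −0.13 (SE 0.186, adjusted p = 0.639). With library size only it was −0.47 (adjusted p = 0.039). MT-TE, for glutamate, had 81, 72, 134 and 63 against 42, 82, 68 and 54 and 0.15 (SE 0.164, adjusted p = 0.531), with the sign reversed to −0.19 under library size only. The counting function of the aligner takes reads that align to 1 place only. Whether this sets the counts of these genes was not tested, and their low counts do not show low levels of the tRNAs.

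**Figure D2:**
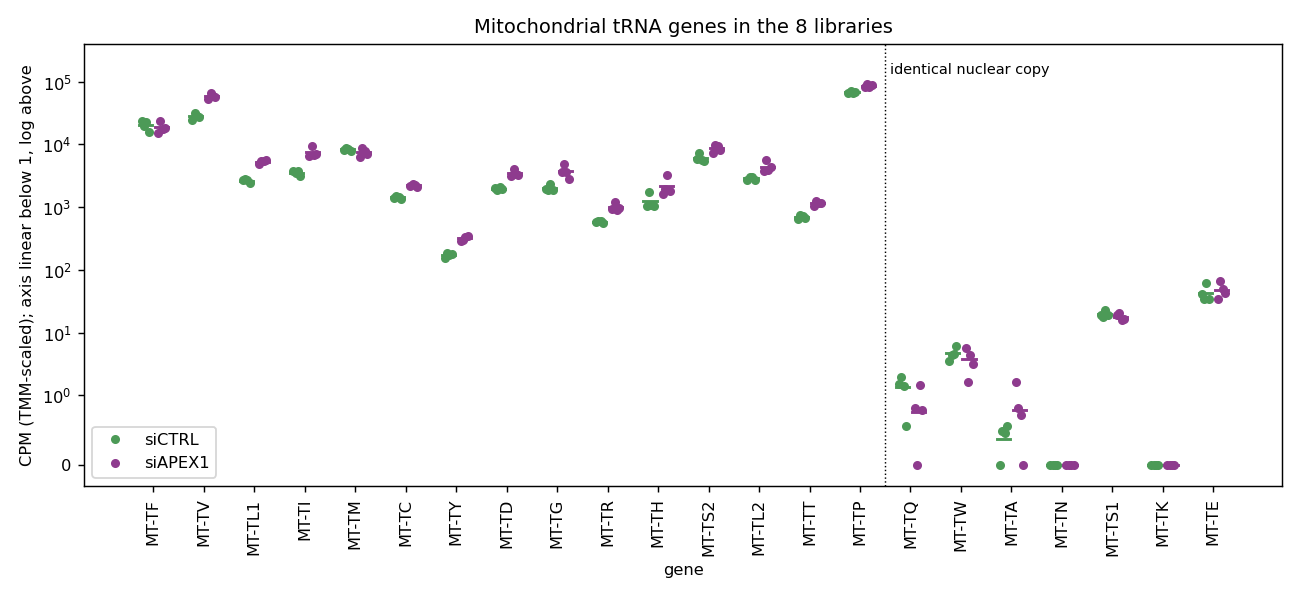
CPM (y axis, counts scaled with TMM factors, linear below 1 and logarithmic above) of the 22 mitochondrial tRNA genes (x axis, in genome order within each side) in the 4 libraries labelled siCTRL and the 4 labelled siAPEX1, with a point per library and a bar at the mean. The 7 genes right of the dotted line have an identical copy in the nuclear genome and had at most 134 counts, and among the others MT-TV, MT-TL1 and MT-TI show the points of the labels most widely apart.

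Both rRNAs were high in every library. MT-RNR1, the RNA of the small ribosomal subunit, had 95484, 94791, 103273 and 87093 counts under the label siCTRL and 64049, 60852, 74280 and 61640 under the label siAPEX1. Its log2FC was 0.11 (SE 0.0758, adjusted p = 0.300), and with library size only the sign turned, to −0.23 (adjusted p = 0.00843). MT-RNR2, the RNA of the large subunit, had 190582, 214431, 218742 and 206154 counts against 173623, 154075, 195470 and 170766. It was up-regulated with a log2FC of 0.39 (SE 0.0778, adjusted p = 1.04e-04), but not with library size only (0.05, adjusted p = 0.607). The ratio of MT-RNR2 to MT-RNR1 counts, which no scaling alters, was 1.996, 2.26, 2.12 and 2.37 in the libraries labelled siCTRL and 2.71, 2.53, 2.63 and 2.77 in those labelled siAPEX1, without overlap.

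The mRNAs did not move as a class. All 13 mRNA genes were tested, 6 were up-regulated, 5 down-regulated and 2 (MT-ND3 and MT-ND5) did not pass the test. Their median log2FC was 0.15, and it was 0.06 without siCTRL replicate 1 and −0.19 with library size only. The values ran from −0.70 for MT-ATP8 to 1.20 for MT-CO1, although 12 of the 13 genes lie on the same strand.

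MT-CO1, the catalytic subunit of cytochrome c oxidase, had 1802, 2208, 2374 and 2037 counts in the libraries labelled siCTRL and 3583, 2896, 3076 and 2734 in those labelled siAPEX1. Even before scaling, every library labelled siAPEX1 was higher. The mean level was 1051 ± 99.3 CPM against 2423 ± 360.0 (SD, n = 4 each), a log2FC of 1.20 (SE 0.0945, adjusted p = 1.49e-13). It was 0.87 with library size only. MT-CO2, the subunit that takes electrons from cytochrome c, was up-regulated by 0.43 on the log2 scale (adjusted p = 3.06e-04), but not with library size only (0.09, adjusted p = 0.462). MT-CO3, the remaining mitochondrially encoded subunit of the same enzyme, was down-regulated with −0.26 (adjusted p = 0.0128). That call was lost without siAPEX1 replicate 3 (adjusted p = 0.0738) and without siAPEX1 replicate 4 (0.0761).

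Of 7 mitochondrially encoded subunits of complex I, which oxidises NADH, 4 were up-regulated and 1 down-regulated. MT-ND1 had 1201, 1482, 1573 and 1210 counts against 1399, 1195, 1199 and 1149 and a log2FC of 0.52 (SE 0.0927, adjusted p = 2.13e-05). MT-ND4L had 682, 804, 813 and 676 against 727, 563, 698 and 646 and a log2FC of 0.48 (SE 0.0912, adjusted p = 5.15e-05). In both genes the raw counts overlapped and the scaled levels did not, and with library size only the adjusted p was 0.119 and 0.223. MT-ND4, which shares its transcript and 7 bases with MT-ND4L, had a log2FC of 0.29 (adjusted p = 0.00494), which turned to −0.05 with library size only. MT-ND5 had 0.15 (adjusted p = 0.197) and turned to −0.19.

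MT-ND2, the mitochondrially encoded subunit of complex I that was down-regulated, had 23308, 23750, 23460 and 21155 counts under the label siCTRL. It had 9783, 9051, 10393 and 10004 under the label siAPEX1. In CPM, the highest library labelled siAPEX1 had 8056 and the lowest labelled siCTRL 10872. The log2FC was −0.57 (SE 0.0790, adjusted p = 1.92e-07). MT-ND3 had a value of −0.21 (adjusted p = 0.0502), with all libraries labelled siAPEX1 below the others in CPM, and it passed the adjusted p under 6 of the alternatives, such as upper-quartile factors (0.0418) and the replicate number as a block (0.0406).

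MT-ND6, the light-strand mRNA and also a subunit of complex I, had 113, 122, 144 and 134 counts against 100, 115, 96 and 102. Its log2FC was 0.34 (SE 0.117, adjusted p = 0.0213), with groups that overlapped in CPM. The call was lost in 8 alternatives, such as DESeq2 (adjusted p = 0.0794), library size only (0.00, adjusted p = 0.999), and leaving out siCTRL replicate 1 (0.0688), siCTRL replicate 2 (0.0655) or siAPEX1 replicate 2 (0.0750). MT-CYB, the cytochrome b of complex III, lies beyond MT-ND6 on the heavy strand. It had 5734, 5783, 6137 and 4385 counts against 2357, 2071, 2450 and 2479 and a log2FC of −0.57 (SE 0.0853, adjusted p = 7.96e-07). For each count of MT-CYB there were 0.0237 ± 0.00482 of MT-ND6 under the label siCTRL and 0.0446 ± 0.00743 under the label siAPEX1 (SD, n = 4 each), without overlap.

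Both mitochondrially encoded subunits of ATP synthase were down-regulated, but they are read from the same mRNA and are not separate results. MT-ATP8 had 43429, 44997, 56272 and 44769 counts under the label siCTRL and 16112, 17804, 19766 and 20319 under the label siAPEX1. The mean was 23621 ± 2152 CPM against 14527 ± 1193 (SD, n = 4 each), a log2FC of −0.70 (SE 0.0834, adjusted p = 7.07e-09), and −1.04 with library size only. MT-ATP6, which is read from the same mRNA and overlaps MT-ATP8 by 46 bases, had a log2FC of −0.39 (adjusted p = 2.75e-04). Reads that cover bases of both genes are assigned to neither. MT-ATP8 alone took 44.4% ± 2.05 of the mitochondrial mRNA counts under the label siCTRL and 35.0% ± 2.81 under the label siAPEX1 (SD, n = 4 each), and MT-CO1 1.97% ± 0.137 and 5.83% ± 0.787. The ratio of MT-CO1 to MT-ATP8 counts was 0.0415, 0.0491, 0.0422 and 0.0455 in the libraries labelled siCTRL and 0.222, 0.163, 0.156 and 0.135 in those labelled siAPEX1.

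**Figure D3:**
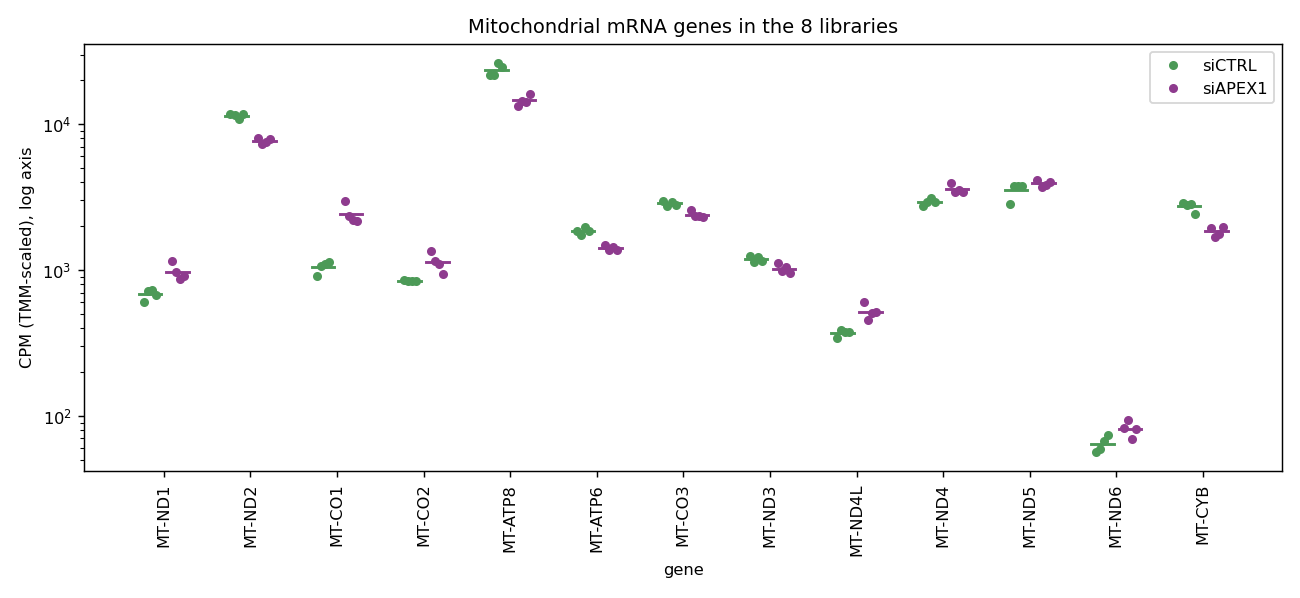
CPM (y axis, logarithmic, counts scaled with TMM factors) of the 13 mitochondrial mRNA genes (x axis, in genome order) in the libraries labelled siCTRL and siAPEX1, with a point per library (4 of each label) and a bar at the mean. MT-CO1 rises from 1051 to 2423 CPM on average and MT-ATP8 falls from 23621 to 14527, each without overlap between the labels.

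Per length, the mRNAs differed widely in level. In the libraries labelled siCTRL, MT-ATP8 had 114109 CPM per kilobase and MT-ND2 10989, while MT-CO1 had 681 and MT-ND6 122. MT-ATP6, read from the same mRNA as MT-ATP8, had 2719, so these values do not measure the amount of an mRNA molecule. These values divide by the whole length of a gene, although reads that fit several places or an overlap of genes are not counted. How far this sets the differences in level was not tested. The mRNAs with the highest levels per length had the lowest log2FCs, with a Spearman's rho of −0.86 over the 13 genes. This is a description across genes of the same libraries, which are not independent, and the level in the siCTRL libraries enters both measures. Over the 17 tRNA genes tested, rho was 0.03. Reads that also fit nuclear copies were checked as the share of 50-base windows of each gene that occur unchanged on a nuclear chromosome. It was 50.6% for MT-CO1, 43.6% for MT-ND2, 8.23% for MT-ATP8 and 1.65% for MT-CYB, and its rho with the log2FC of the mRNAs was 0.09.

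**Figure D4:**
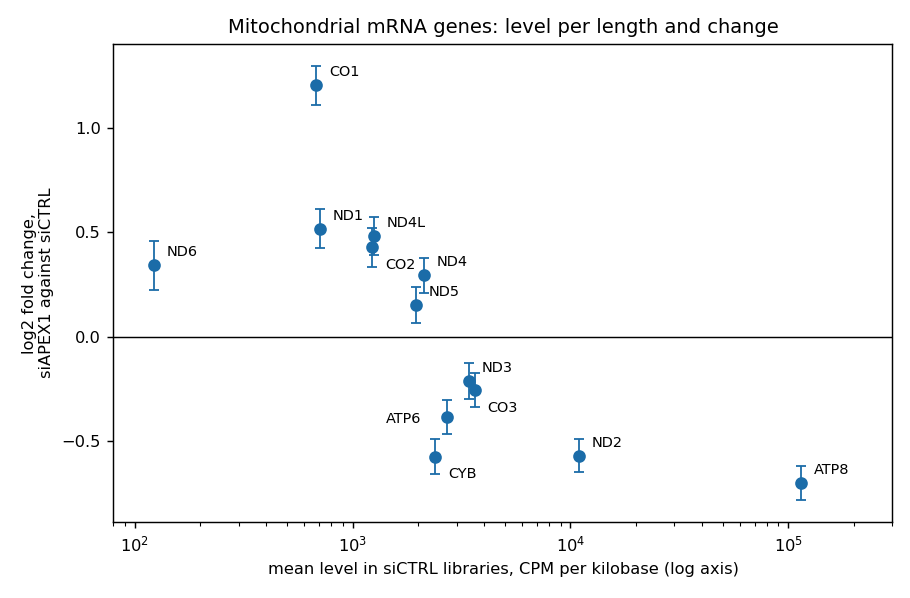
Log2FC of the 13 mitochondrial mRNA genes (y axis, libraries labelled siAPEX1 against siCTRL, bars are standard errors from edgeR) against their mean level in the siCTRL libraries (x axis, CPM per kilobase, logarithmic). MT-ATP8 lies lowest at −0.70 and farthest right at 114109, and MT-CO1 highest at 1.20 with 681.

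Along the genome, stretches in which neighbours went up and down in turn stood beside runs in one direction. From the heavy-strand start, MT-TF (−0.11), MT-RNR1 (0.11), MT-TV (1.09), MT-RNR2 (0.39), MT-TL1 (1.01) and MT-ND1 (0.52) follow each other, and each rRNA lies below the tRNA that follows it. Next come MT-TI (1.08), MT-TM (−0.14) and MT-ND2 (−0.57), with MT-TQ on the other strand between the tRNAs. Further on, MT-CO3 (−0.26) and MT-ND3 (−0.21) lie on either side of MT-TG (0.88), and MT-CYB (−0.57) is followed by MT-TT (0.73), the last gene of the heavy strand. The values rose in a row from MT-TC (0.63) over MT-TY (0.86) to MT-CO1 (1.20), and from MT-ATP8 (−0.70) over MT-ATP6 (−0.39) and MT-CO3 to MT-TG. They fell in a row from MT-TR (0.79) over MT-ND4L (0.48) to MT-ND4 (0.29), and from MT-ND6 (0.34) over MT-TE (0.15) to MT-CYB. Spearman's rho between the log2FC and the place in the order was −0.15 over the 32 genes tested, −0.21 over the mRNAs and −0.30 over the 12 heavy-strand tRNAs, given as a description. The light-strand members tested, MT-TC, MT-TY, MT-TS1, MT-ND6, MT-TE and MT-TP, had a median of 0.34, and the 26 of the heavy strand 0.46. MT-TC and MT-TY share 1 base, and MT-TI and MT-TQ, on opposite strands, share 3.

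**Figure D5:**
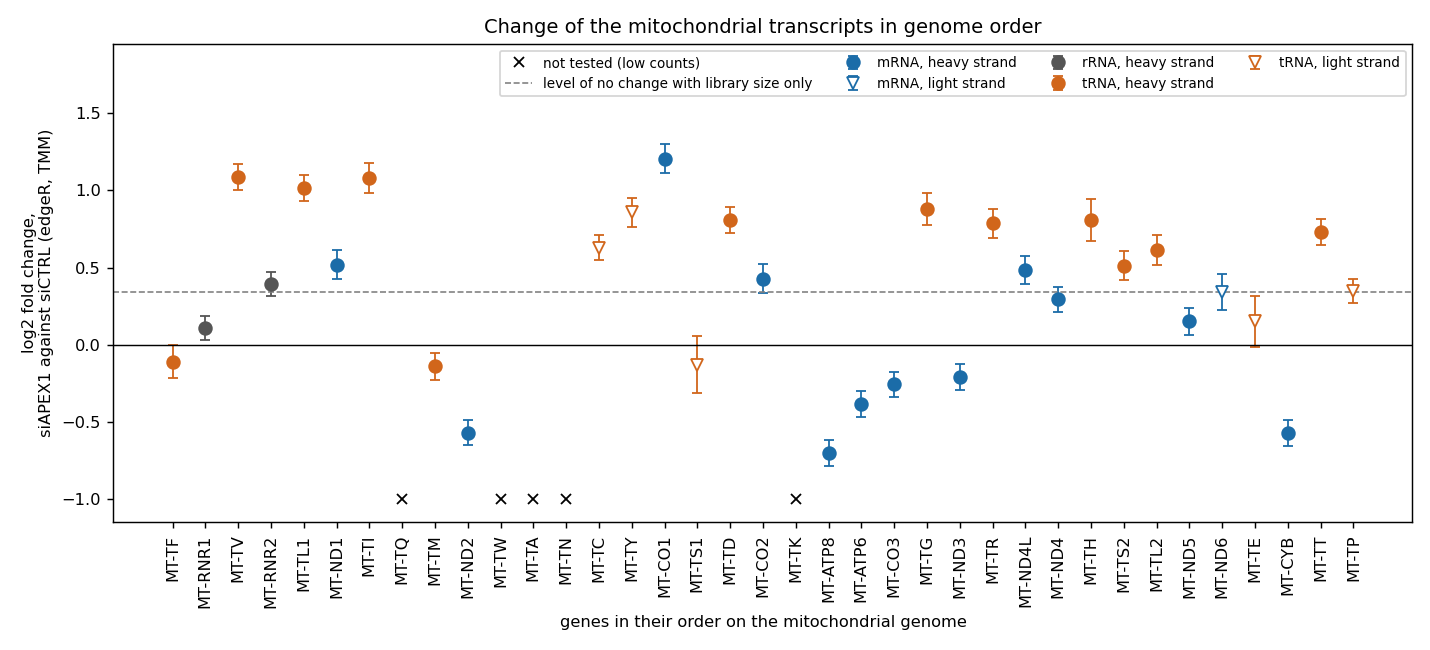
Log2FC (y axis, libraries labelled siAPEX1 against siCTRL, with standard errors from edgeR and TMM factors) of the mitochondrial genes in their order on the genome (x axis), coloured by class, with filled circles for the heavy strand and open triangles for the light strand. Crosses name the 5 untested tRNA genes and their height has no meaning, tRNAs such as MT-TG (0.88) and MT-TT (0.73) stand above the mRNAs beside them, MT-CO1 (1.20) is the highest value, and the dashed line at 0.34 is where no change would lie with library size only.

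Nuclear genes that make and process these RNAs were mostly too low to test. Of a list of 72 genes for mitochondrial transcription, precursor processing, RNA stability, modification and their nuclear regulators, 17 passed the filter. Past the adjusted p 0 were higher and 1 was lower, where 15.9% of all genes tested were higher and 15.8% lower. At an unadjusted p under 0.05, 0 were higher and 3 lower, and no share over all genes was taken at that p. DESeq2 called 0 in either direction, where it called 10.8% of all genes higher and 10.1% lower. The gene called was SLIRP, which together with LRPPRC binds and stabilises mitochondrial mRNAs. It had 64, 53, 65 and 38 counts against 22, 25, 23 and 22, a log2FC of −0.60 (SE 0.179, adjusted p = 0.00839), with an adjusted p of 0.0606 with DESeq2. LRPPRC had between 44 and 84 counts per library and a value of −0.11 (SE 0.140, adjusted p = 0.604). ELAC2 had −0.17 (SE 0.281), TRMT10C, a subunit of mitochondrial RNase P, 0.48 (0.283), and TRNT1, which adds the CCA end to tRNAs, 0.19 (0.274). TFAM, which packages mitochondrial DNA and acts in its transcription, had 0.18 (0.229). None of these passed the test. POLRMT, the mitochondrial RNA polymerase, had between 3 and 12 counts per library and was not tested. With library size only, 8 of the 17 were lower, a setting under which 36.2% of all genes were lower.

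Annotated nuclear copies of the members held few counts. Of 404 pseudogenes and related genes outside the mitochondrial chromosome, 329 had 0 counts in all libraries, and together the 404 held between 155 and 227 counts per library. The 3 with the most counts were MTATP6P1, MTND2P28 and MTND4P12, with 464, 361 and 191 counts over the 8 libraries. MTATP6P1 (chromosome 1) was higher with a log2FC of 0.60 (SE 0.144, adjusted p = 0.00108), while MT-ATP6, which it resembles, was lower. MTND2P28 had −0.04 (adjusted p = 0.886) and MTND4P12 −0.23 (adjusted p = 0.490). Where a member and its near-identical copy share sequence, reads cannot be told apart and, fitting more than 1 place, are counted for neither. The few counts on the copies thus do not show low levels.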

How the data were processed

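RNA-seq was made from total RNA of A549 cells in quadruplicate. The authors removed adapters, primers and poly-A tails with cutadapt, aligned reads to GRCh38 with STAR 2.5.3a and deposited raw counts per Ensembl gene from its GeneCounts mode, without normalization. The annotation release and the strand setting are not given in the sources used here. Counts were matched to GENCODE 44. Differential expression was computed with edgeR 4.0.16 in R 4.3.3 (filterByExpr with a minimum count of 10 and minimum total of 15, TMM factors, quasi-likelihood F test, Benjamini-Hochberg adjustment over 5368 genes). The standard error is the log2 fold change divided by the square root of F. The common biological coefficient of variation was 0.0832. Nuclear matches were sought with BLAST+ 2.17.0, and anticodons were located by script as the triplet of a 7-base loop that decodes the amino acid of the gene. Programs were tested on simulated data.

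All members are named. Counts in every library are given for the rRNAs, MT-ND6, the 3 highest and 3 lowest mRNAs, the 4 highest and 4 lowest tRNAs by log2 fold change, untested members and, chosen after their values were seen, MT-TP. The ratios within a library were also chosen then. The members and lists were chosen with earlier results of these data known. Alternatives were other scalings, DESeq2 1.42.0, other filters, the replicate number as a block, a log2 threshold of 0.75 and each library left out. Deviations of same-numbered libraries had correlations between −0.0373 and −0.00348, so the numbers were not taken as pairs. Reads carry no molecular identifiers, so PCR copies cannot be told from separate molecules and a high count does not show a small counting error.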

Additional observations from a re-analysis of the deposited data

Results flagged for a closer look

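In 7 of 72 groups of 4 libraries 1 library lay far from the other three (the gap to its neighbour over the range of the group, above Dixon's 95% critical value), where chance alone gives about 1 in 20 such groups. Under the label siCTRL these were MT-TH, with 1753 CPM in replicate 2 against 1049 to 1077 in the others (0.961), MT-ND5, with 2846 CPM in replicate 1 against 3755 to 3775 (0.979), MT-RNR1, with 45906 CPM in replicate 2 against 47859 to 48199 (0.852), and MT-TG, with 2335 CPM in replicate 3 against 1881 to 1949 (0.849). Under the label siAPEX1 these were MT-TI, with 9506 CPM in replicate 2 against 6591 to 6999.6 (0.860), MT-TR, with 1219.9 CPM in replicate 2 against 908 to 960.3 (0.831), and MT-CO3, with 2574 CPM in replicate 1 against 2320.2 to 2344 (0.905).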

How the results depend on the processing

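Of 544 values of the tested members under the alternatives, 497 kept their direction and side of the threshold, 24 lost the call, 13 gained it and 10 changed sign. The scaling moved most. With library size only, and also with libraries scaled to their mitochondrial counts, 12 members were higher and 10 lower, 0 higher and 1 lower by 2-fold, and 8 genes of the nuclear list lower. Median log2 fold changes were then −0.19 and −0.17 for mRNAs, −0.092 and −0.074 for rRNAs, and 0.39 and 0.41 for tRNAs. Signs turned for MT-RNR1 (−0.23 and −0.22), MT-ND4 (−0.046 and −0.028), MT-ND5 (−0.19 and −0.17) and MT-TE (−0.19 and −0.17). With all genes of at least 1 count, 1 member was higher by 2-fold and the medians of mRNAs and rRNAs were 0.060 and 0.16. With at least 10 counts in every library these were 2 members, an rRNA median of 0.16 and 2 genes of the nuclear list lower, while DESeq2 called 0 of that list. At a threshold of 0.75, 9 members were higher. With libraries left out in turn, MT-TF ran from −0.22 to 0.0037 (positive without siAPEX1 replicate 1), MT-TE from −0.013 (without siAPEX1 replicate 2) to 0.39, the mRNA median from 0.059 to 0.20, and the difference of the rRNA share from −0.736 to 0.126 percentage points, positive without siCTRL replicate 4 or siAPEX1 replicate 2. The light-strand share of tRNA counts differed by −5.06 percentage points, by −0.0139 without MT-TP and by 0.224 without MT-TF, MT-TV and MT-TP. The tRNA share differed by 0.124 percentage points without MT-TV and the mRNA share by −0.305 without MT-ATP8 and MT-ND2, both chosen after seeing the data. With the replicate block, 20 members were higher and 6 lower, MT-ND3 being added. Low counts limit the nuclear list, MT-ND6 and the 5 untested tRNA genes, and what sets them was not tested. The cause of these shifts was not tested.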
